A study of Sus scrofa with 102 samples.

Results

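The microsomal glutathione transferases *MGST1* and *MGST2* and the prostaglandin reductases *PTGR1* and *PTGR2* form a pair of paralogs each, in lipid mediator and lipid peroxide metabolism. The members were taken as every probe that the array annotation names *MGST1*, *PTGR1* or *PTGR2*, together with the probes that the study named *MGST2* and *PTGR2*. This gave 4 genes with 1 probe each, of 2202 named genes and 5449 probes tested. No gene had a further probe, so no member could be compared with another probe of the same gene. The *MGST2* probe carries no gene symbol in the array annotation, so its name rests on the study. In the RefSeq annotation of Sscrofa11.1 the genes lie on chromosomes 5 (*MGST1*), 8 (*MGST2*), 1 (*PTGR1*) and 7 (*PTGR2*).

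Microsomal glutathione transferases are membrane proteins of the MAPEG family that use glutathione to conjugate reactive compounds and to reduce lipid peroxides. MGST2 also joins glutathione to leukotriene A4 to form leukotriene C4. Prostaglandin reductases are soluble enzymes of the medium-chain dehydrogenase and reductase superfamily. They reduce the double bond of 15-keto prostaglandins, the step that follows oxidation by 15-hydroxyprostaglandin dehydrogenase. PTGR1 is also known as leukotriene B4 12-hydroxydehydrogenase, and PTGR2 acts on 15-keto prostaglandin E2, a ligand of the adipogenic receptor PPARγ.

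Expression had been measured in *Longissimus dorsi*, the loin muscle, of 102 backcross pigs, 55 females and 47 males, with 1 array per pig. All animals came from F1 boars of an Iberian by Landrace cross that had been mated to Landrace sows, so they carried mainly Landrace ancestry, and they are related. They were slaughtered at 171 to 184 days of age with carcass weights of 43.6 to 97.8 kg, in 3 batches of 14 (batch 1: 8 females and 6 males), 18 (batch 3: 11 females and 7 males) and 70 pigs (batch 2: 36 females and 34 males). The pigs were fed ad libitum, the labels name no treatment, and the comparisons are between the sexes, between the slaughter batches and along carcass weight.

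The values are log2 intensities between 0.80 and 16.00, with array medians between 6.20 and 6.68. The muscle label was borne out by its markers, as desmin (*DES*) averaged 12.98 and the slow troponin *TNNT1* 14.20 (mean log2 expression). The Y-linked probe of 3 arrays labelled female lay with the males, and results were repeated without these arrays. The share of all probes that a fit called is given beside each count of members called, as its background. All probes means the deposited ones. The paper describes a filter that kept only probes varying enough around their median in muscle, and the deposited set may be its result. A listed gene counts as measured if a tested probe was assigned to it. Genes not measured may thus have been filtered out or lack a named probe. Precision is limited by the number of arrays. Muscle RNA is a mixture from fibres, adipocytes, vessels and other cells, so fewer cells of a type and less RNA per cell cannot be told apart.

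Within each pair, 1 paralog had a dim probe and the other a bright one. *MGST1* averaged 5.47 ± 0.93 (SD, n = 102), with 3.45 in the lowest pig, a median of 5.21 and 7.99 in the highest. *MGST2* averaged 8.54 ± 0.76, with a lowest value of 6.64, a median of 8.51 and a highest of 10.35. The highest *MGST1* value lay below the *MGST2* mean. *PTGR1* averaged 5.93 ± 0.67, between 4.28 and 8.24 with a median of 5.89. *PTGR2* averaged 9.48 ± 0.65, between 8.20 and 11.43 with a median of 9.42. Because affinity varies from probe to probe, the intensities give no order of RNA amount between genes, and changes of dim probes may be compressed.

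Among the means of all tested probes, *MGST1* lay at percentile 30.5, *PTGR1* at 39.2, *MGST2* at 83.9 and *PTGR2* at 91.2. The order differed for the spread between pigs, where *MGST1* had the highest SD of the 4 (percentile 86.2 of all probes) and *PTGR2* the lowest (54.0). These percentiles hold within the deposited probes, which may have been preselected for their spread. Sex, batch and weight together accounted for 19.0% of the variance of *MGST1*, 47.5% for *MGST2*, 17.4% for *PTGR1* and 33.6% for *PTGR2*, beside a median of 35.3% over all probes. For all 4 genes most of the variation was thus between pigs of the same sex, batch and weight. The lowest value of *MGST1* and the lowest of *PTGR1* came from the same pig, a male of batch 2 with 3.45 for *MGST1* and 4.28 for *PTGR1*. The pig with the highest *MGST1*, a female of batch 3, had 7.99 for *MGST1* and 8.21 for *PTGR1*, just below the highest *PTGR1* of 8.24.

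**Figure D1:**
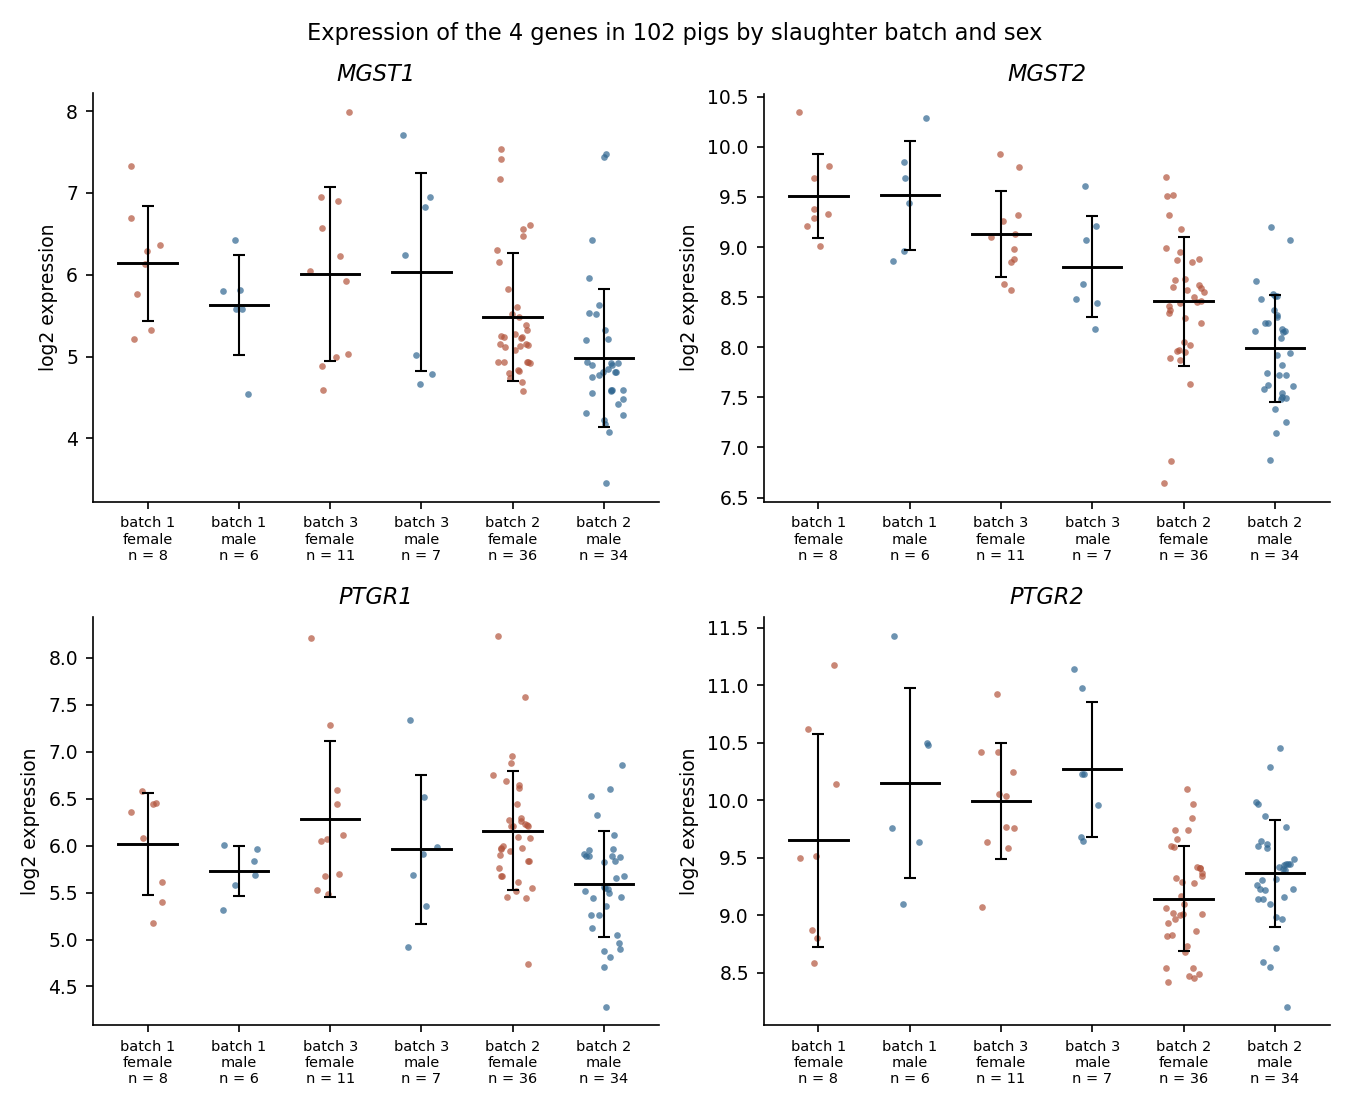
Log2 expression of *MGST1*, *MGST2*, *PTGR1* and *PTGR2* (vertical axes, a separate scale for each gene) in every pig, by slaughter batch and sex. Points are pigs (red for females, blue for males), and the line and bars are the mean and SD of each group. In batch 2 the females lie above the males for *MGST1*, *MGST2* and *PTGR1* with wide overlap, while for *PTGR2* the female mean lies below the male mean in each of the 3 batches.

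The comparison of the sexes asks whether the 4 genes differ between females and males of the same batch and weight. 3 of the 4 were higher in females, and *PTGR2* had a difference of the opposite sign that did not pass the test. In the fit, 26.1% of all probes were called for sex, 11.7% as higher in females and 14.4% as lower, and the median difference over all probes was -0.03. Batch and carcass weight were in the model.

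Of the glutathione transferases, *MGST1* averaged 5.69 ± 0.86 in females (SD, n = 55), between 4.58 and 7.99 around a median of 5.32. In males it averaged 5.22 ± 0.95 (SD, n = 47), between 3.45 and 7.71 around a median of 4.90. The sexes overlapped over most of their range, and the log2 difference was 0.44 (standard error 0.17, 1.36-fold, adjusted p = 0.0443 from limma). *MGST2* ranged from 6.64 to 10.35 in females with a median of 8.68, and from 6.88 to 10.29 in males with a median of 8.24. Its 95% interval for the difference, 0.14 to 0.59, overlapped that of *MGST1*, 0.10 to 0.78.

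Of the prostaglandin reductases, *PTGR1* showed the largest sex difference of the 4 genes. It averaged 6.16 ± 0.66 in females (SD, n = 55; range 4.74 to 8.24, median 6.08) and 5.66 ± 0.58 in males (SD, n = 47; range 4.28 to 7.34, median 5.68). The log2 difference was 0.53 (standard error 0.12, 1.44-fold, adjusted p = 0.000963 from limma), although the groups overlapped. *PTGR2* averaged 9.39 ± 0.65 in females and 9.60 ± 0.65 in males, with ranges of 8.42 to 11.17 in females and 8.20 to 11.43 in males. Its difference of -0.28 (standard error 0.11, 95% interval -0.49 to -0.06) missed the threshold over all probes (adjusted p = 0.0519 from limma). It passed in some alternatives, for example at -0.28 with 2 principal components added (adjusted p = 0.0294 from limma). In 9 of 13 alternatives it stayed uncalled. Over all 13 it ranged from -0.31 to -0.20, with adjusted p up to 0.216 from limma.

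Inside batch 2, the largest batch, the female minus male difference was 0.50 for *MGST1* (p = 0.0116, permutation test), 0.47 for *MGST2* (p = 0.00143), 0.57 for *PTGR1* (p = 0.00012) and -0.22 for *PTGR2* (p = 0.0514). In batch 1 the differences were 0.51, -0.01, 0.28 and -0.50 in the same order, with exact permutation p-values from 0.18 to 0.983. In batch 3 they were -0.02, 0.33, 0.33 and -0.28, with exact permutation p-values from 0.159 to 0.973. The female mean of *PTGR1* was the higher one and that of *PTGR2* the lower one in all 3 batches, while *MGST1* in batch 3 and *MGST2* in batch 1 showed next to no difference. A sex difference that changes between batches was not called for any of the 4 genes (adjusted p from 0.813 to 0.915 from limma). That test called 0 probes (0%) at an adjusted p under 0.05, and 425 (7.8%) had an unadjusted p under 0.05.

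*ADIPOQ*, which encodes the adipocyte hormone adiponectin, was above a log2 value of 3 in more females than males and moved with *MGST1* and *PTGR1*. Its log2 expression was above 3 in 23 of 55 females and in 8 of 47 males. The probe was near its floor in many pigs, with medians of 2.64 in females and 2.22 in males, so no size of the sex difference is given, and relations to *ADIPOQ* rest largely on the pigs in which it was brighter. Of the 5 measured of 12 listed adipocyte markers, the other 4 were not called for sex. The mean log2 value of the 5 markers ranged from 7.03 to 9.63 in females with a median of 8.15, and from 7.42 to 9.26 in males with a median of 8.18. With *ADIPOQ* in the model the sex difference of *MGST1* was 0.12 and no longer called (adjusted p = 0.558), and that of *PTGR1* was 0.30 (adjusted p = 0.026). With the mean of all 5 markers in the model they were 0.41 for *MGST1* (adjusted p = 0.0297) and 0.51 for *PTGR1* (adjusted p = 0.000514). The values of *MGST2* were 0.37 in both fits. The part of adipocytes in the sex difference was not tested further.

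The contrast of paralogs asks whether 2 related genes responded differently, and was tested on their difference inside each pig. 6 such comparisons were made (2 pairs, each for sex, batch and weight), with p-values adjusted over them. *MGST1* minus *MGST2* averaged -3.06 ± 1.00 in females and -3.08 ± 0.92 in males (SD). The sex difference of this quantity was 0.08 (standard error 0.19, 95% interval -0.31 to 0.46, p = 0.694 by permutation), so no divergence of the glutathione transferases by sex was detected, and the interval reaches as far as either gene's own sex difference.

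*PTGR1* minus *PTGR2* averaged -3.22 ± 0.98 in females (SD; range -5.57 to -1.17, median -3.13) and -3.94 ± 0.72 in males (SD; range -5.59 to -2.11, median -3.96). The log2 intensities of the 2 probes lay closer together in females, which does not tell how alike the RNA amounts were. The sex difference was 0.80 (standard error 0.17, 95% interval 0.47 to 1.13, p = 3e-05 by permutation, adjusted p = 0.00018). It was 0.78 in batch 1 (p = 0.239, exact permutation test), 0.60 in batch 3 (p = 0.209, exact permutation test) and 0.79 in batch 2 (p = 4e-05, permutation test). The divergence was 0.61 with *ADIPOQ* in the model (adjusted p = 0.0018) and 0.73 with the mean of the slow fibre markers (adjusted p = 6e-05).

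**Figure D2:**
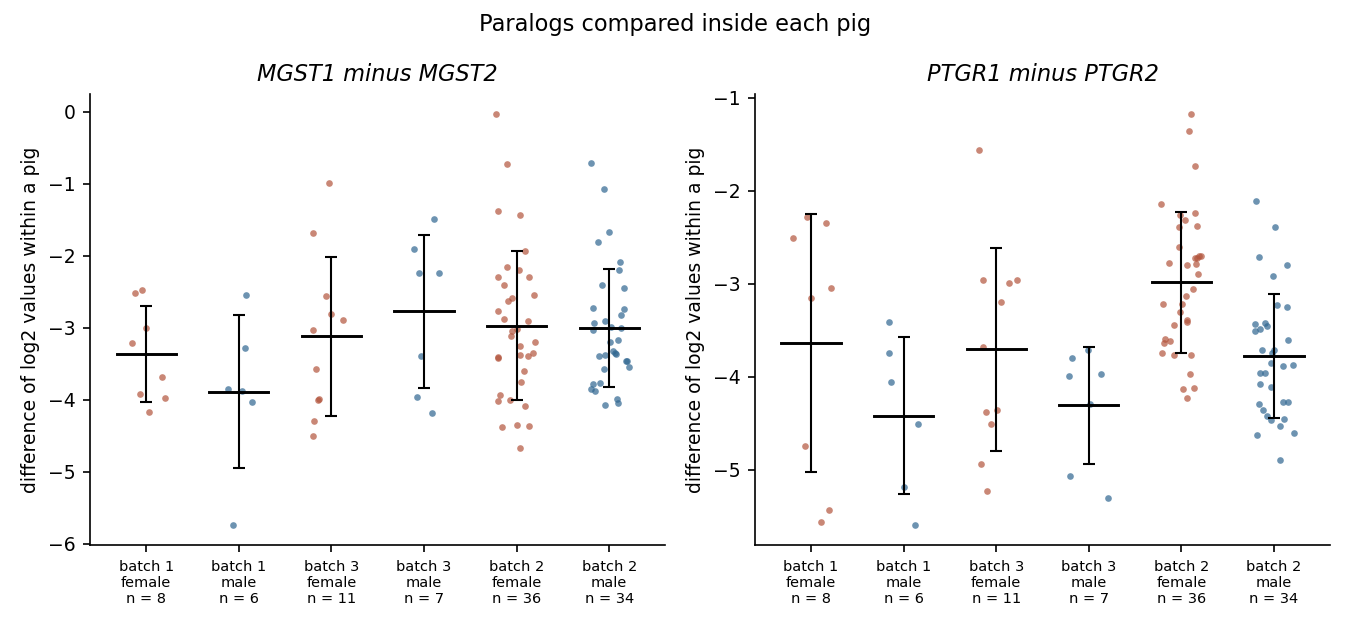
Difference of log2 values inside each pig (vertical axes) for *MGST1* minus *MGST2* (left) and *PTGR1* minus *PTGR2* (right), by slaughter batch and sex. Points are pigs (red for females, blue for males) and the line and bars are mean and SD. The female mean of *PTGR1* minus *PTGR2* is less negative than the male mean in each batch, -3.22 against -3.94 over all pigs, while for *MGST1* minus *MGST2* the means are -3.06 and -3.08.

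The comparison of slaughter batches covers everything that differed between them, including mean age, which was 175.1 days for batch 1, against 180.6 for batch 3 and 180.7 for batch 2. *MGST1*, *MGST2* and *PTGR2* were higher in batches 1 and 3 than in batch 2, and *PTGR1* was not called. In limma 86.6% of all probes were called for batch and 36.5% were called and higher in both batches 1 and 3, beside 3 of 4 members called, all 3 of them higher in both. The median difference over all probes was -0.11 for batch 1 minus batch 2 and -0.17 for batch 3 minus batch 2, and 0.01 and -0.01 after quantile normalization. The 3 called members lay on the other side of 0 from the median of the deposited values, and they were called after quantile normalization too.

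*MGST2* separated batch 1 from batch 2 most clearly, with values of 8.86 to 10.35 in batch 1 (median 9.41), 8.18 to 9.93 in batch 3 (median 9.02) and 6.64 to 9.69 in batch 2 (median 8.27). The differences from batch 2 were 1.23 for batch 1 (standard error 0.17, 2.35-fold) and 0.71 for batch 3 (standard error 0.16, 1.63-fold). The lowest pig of batch 1 lay above the median of batch 2. *MGST1* had means of 5.92 ± 0.69 for batch 1 (n = 14), 6.02 ± 1.08 for batch 3 (n = 18) and 5.24 ± 0.85 for batch 2 (SD, n = 70), and its differences from batch 2 were 0.70 (standard error 0.25) and 0.79 (standard error 0.23, adjusted p = 0.00114 for batch from limma). Batch 1 minus batch 3 was 0.53 for *MGST2* (adjusted p = 0.0535) and -0.09 for *MGST1* (adjusted p = 0.879), and neither was called. The paralog difference itself was not called for batch, at -0.53 for batch 1 and 0.08 for batch 3 against batch 2 (p = 0.135 by permutation, adjusted p = 0.27).

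*PTGR2* had means of 9.86 ± 0.89 for batch 1, 10.10 ± 0.54 for batch 3 and 9.25 ± 0.47 for batch 2 (SD), with differences from batch 2 of 0.61 (standard error 0.16) and 0.85 (standard error 0.15, adjusted p = 2.17e-07 for batch from limma). The medians of batches 1 and 3, 9.70 and 10.04, lay above the batch 2 median of 9.29, while the ranges overlapped. *PTGR1* had means of 5.89 ± 0.45 for batch 1, 6.16 ± 0.81 for batch 3 and 5.88 ± 0.66 for batch 2 (SD), and the 3 ranges overlapped. Its differences were 0.04 (95% interval -0.32 to 0.41) and 0.30 (95% interval -0.04 to 0.64, adjusted p = 0.231 for batch from limma). *PTGR1* minus *PTGR2* was lower in both batches than in batch 2, with differences of -0.57 (standard error 0.25) in batch 1 and -0.55 (standard error 0.23) in batch 3 (p = 0.0142 by permutation, adjusted p = 0.0425). This call was kept after quantile normalization and lost in the other 3 models fitted to all batches, with the actin difference (-0.59 and -0.58, adjusted p = 0.103), with *ADIPOQ* (-0.43 and -0.54, adjusted p = 0.0604) and with the slow fibre mean (-0.44 and -0.43, adjusted p = 0.0975).

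The only indicator of RNA integrity used here, from actin control probes, also differed between slaughter batches, given without a test. The 5′ minus middle difference of the actin control probes, which is more negative in degraded RNA, was -1.28 ± 0.30 for batch 1, -1.32 ± 0.43 for batch 3 and -0.80 ± 0.29 for batch 2 (mean, SD). Inside the groups it correlated with the 4 genes at r from -0.242 to -0.155 on residuals. With it in the model the batch differences of *MGST1* were 0.42 and 0.48 and the call was lost (adjusted p = 0.149), whereas *MGST2* and *PTGR2* remained called. The part of RNA integrity in the batch differences was not tested further.

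Levels of cell type markers also differed between slaughter batches, given here as medians without a test. The mean of the 5 measured adipocyte markers had a median of 7.75 in batch 1, 7.89 in batch 3 and 8.41 in batch 2, and that of the 6 matrix markers 8.19, 7.90 and 7.59. The only measured markers of all fibres and of fast fibres, *DES* and *ATP2A1*, were lower in batches 1 and 3, with medians of 12.13 and 12.00 against 13.34 for *DES* and 12.22 and 12.24 against 13.49 for *ATP2A1*. The mean of the 7 slow fibre markers differed less, at 10.70, 10.62 and 10.55. The markers within a mean did not move alike in the limma fit for batch. Of the 5 adipocyte markers, 1 was called and higher in batches 1 and 3 than in batch 2, and 2 were lower in both. These counts were 3 and 1 for the 6 matrix markers and 3 and 1 for the 7 slow fibre markers, beside 1989 and 2450 of 5449 probes. With the adipocyte mean in the model *PTGR1* was called for batch, at 0.38 in batch 1 and 0.55 in batch 3 against batch 2 (adjusted p = 0.00531 from limma). The part of the other markers in the batch differences was not tested.

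**Figure D3:**
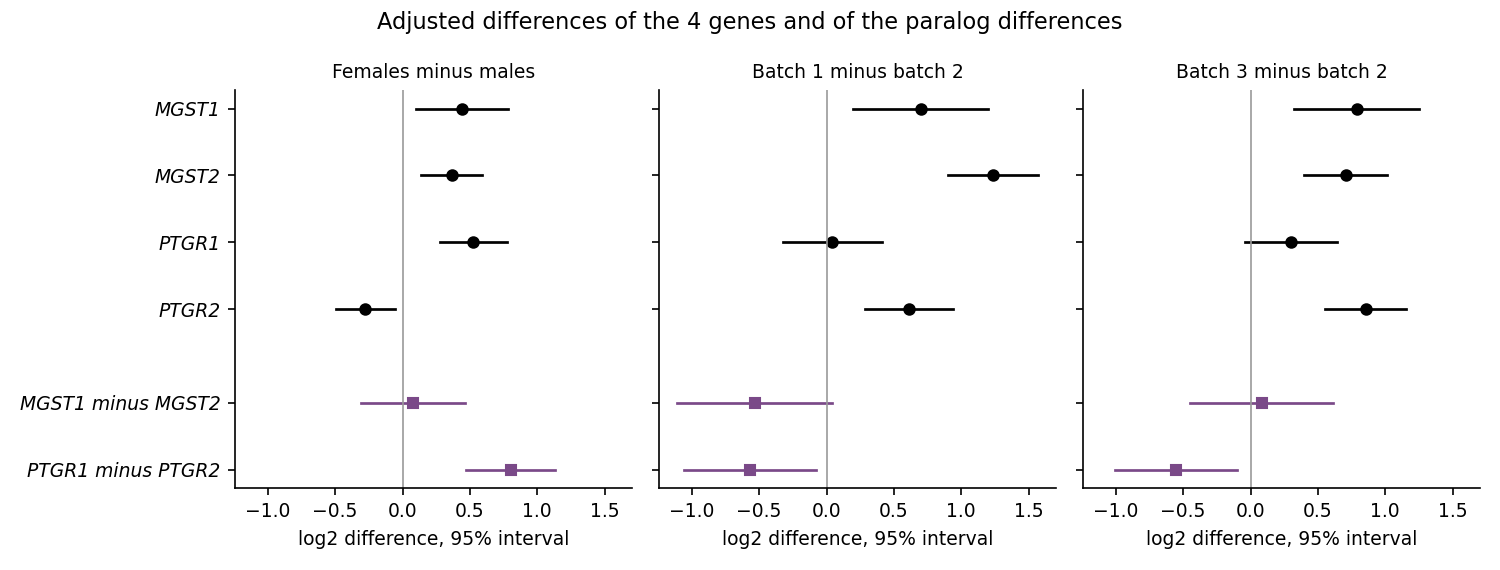
Log2 difference with its 95% interval (horizontal axes) for females minus males, batch 1 minus batch 2 and batch 3 minus batch 2, from the model with sex, batch and carcass weight. Circles are the 4 genes and squares the within-pig paralog differences. For sex the intervals of *MGST1*, *MGST2* and *PTGR1* lie above 0 and that of *PTGR2* below, and *PTGR1* minus *PTGR2* stands at 0.80.

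Carcass weight was not called for any of the 4 genes with sex and batch in the model. The slopes per 10 kg were 0.06 for *MGST1*, -0.04 for *MGST2*, 0.09 for *PTGR1* and -0.02 for *PTGR2* (adjusted p from 0.616 to 0.895 from limma). With weight alone in the model, without sex and batch, the slope of *MGST2* was -0.23 and called (adjusted p = 0.00344 from limma), beside 3412 of 5449 probes called. With sex and batch in the model, limma called 0 of all probes (0%), and 589 (10.8%) had an unadjusted p under 0.05. The paralog differences had slopes of 0.10 for *MGST1* minus *MGST2* (adjusted p = 0.388, permutation) and 0.11 for *PTGR1* minus *PTGR2* (adjusted p = 0.324). A slope that differs between the sexes was not called for any member (adjusted p = 1.00 for each), with 0 probes (0%) called by limma and 292 (5.36%) at an unadjusted p under 0.05.

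Across pigs, the strongest relation among the 4 genes crossed the families. After sex, batch and weight, *MGST1* and *PTGR1* correlated at r = 0.632 (rho = 0.544, each p = 1e-05, the smallest that 100000 permutations can give, n = 102), while *MGST1* with its paralog *MGST2* had r = 0.142 (p = 0.154; rho = 0.135, p = 0.176) and *PTGR1* with its paralog *PTGR2* had r = 0.0115 (p = 0.91; rho = -0.0499, p = 0.617). Of the 6 pairs, only *MGST1* with *PTGR1* was called when p-values were adjusted over all 5448 other probes (adjusted p = 8.09e-10 from limma). 5 of the 10 pigs with the highest *MGST1* residual were also among the 10 highest for *PTGR1*, against 2 for *MGST1* with *MGST2* and 2 for *PTGR1* with *PTGR2*.

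The relation of *MGST1* and *PTGR1* held at r = 0.620 when the 2 pigs with the most extreme *MGST1* residuals were left out. It was 0.746 in batch 3 (n = 18, p = 0.00025), 0.627 in batch 2 (n = 70, p = 1e-05) and 0.250 in batch 1 (n = 14, p = 0.391), where it was not detectable. It was 0.678 in females and 0.582 in males. With *ADIPOQ* in the model r was 0.367 and still called (adjusted p = 0.00178).

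The 3 pairs not yet given had r from 0.200 to 0.247. *MGST1* with *PTGR2* had r = 0.247 (p = 0.0123, adjusted p = 0.0607), *MGST2* with *PTGR2* r = 0.204 (p = 0.0411, adjusted p = 0.112) and *MGST2* with *PTGR1* r = 0.200 (p = 0.0438, adjusted p = 0.119, adjusted over all probes by limma). The relation of *MGST2* and *PTGR2* was uneven over batches, at 0.607 in batch 1, 0.427 in batch 3 and 0.0577 in batch 2. *PTGR1* with *PTGR2* was -0.166 in females and 0.260 in males, a difference that did not pass over all probes (unadjusted p = 0.034, adjusted p = 0.797 from limma).

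The number of probes that moved with a member differed widely. *MGST1* moved with 1104 of 5448 (20.3%), 725 of them with it (13.3%) and 379 against it (6.96%). For *MGST2* these shares were 24.8%, 10.9% and 13.9%, and for *PTGR2*, with 907 probes, 16.6%, 11% and 5.67%. *PTGR1* had the fewest, 243 (4.46%), of which 164 went with it (3.01%) and 79 against it (1.45%). That count was 585 without the 3 arrays whose Y-linked probe went against the label. The 1353 probes of *MGST2* fell to 0 with 2 principal components in the model, and to 0 in females alone (663 and 827 at an unadjusted p under 0.05 in limma), so its calls that follow hold for the model without those components and for both sexes together. The counts thus depend on the pigs and on the model, and serve as the background for the members and lists that follow.

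The genes nearest to *MGST1* across pigs were *PSAT1*, an enzyme of serine synthesis (r = 0.720), *ADIPOQ* (0.666), *FAM149A* (0.664), *PROS1*, which encodes the anticoagulant protein S (0.658), and *ELOVL6*, the elongase of C16 fatty acids (0.656). 3 of these 5 were also among the 5 nearest to *PTGR1*, which were *MGST1* (0.632), *ADIPOQ* (0.629), *PSAT1* (0.576), *ELOVL6* (0.515) and the desaturase *SCD* (0.496). *PAPD7*, a poly(A) polymerase, and the kinase *MAP3K3* were likewise among the 5 most opposed to both, at -0.451 and -0.433 for *MGST1* and -0.413 and -0.391 for *PTGR1*. *OSER1* (-0.438), the ubiquitin ligase *UBE4B* (-0.414) and the clock repressor *CRY2* (-0.393) also went against *MGST1*, and *EIF1B* (-0.396), *PATL1* (-0.389) and the noncoding RNA *MEG3* (-0.388) against *PTGR1*. The genes were picked for the size of r in the same pigs, so their r is a description.

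*MGST2* and *PTGR2* had other neighbours. Beside *HIBCH*, an enzyme of valine breakdown (r = 0.512), *PACRGL* (0.452) and *ANP32E* (0.445), the Mediator subunit *MED21* (0.443) and the nuclear transport GTPase *RAN* (0.436) went with *MGST2*. *CEBPB*, a transcription factor of adipogenesis and inflammation (-0.516), *CDYL* (-0.480), *ITFG2* (-0.473), the deubiquitinase *USP2* (-0.462) and the mitochondrial uncoupling protein *UCP3* (-0.452) went against it. *PTGR2* was nearest to *ATP2A2*, the calcium pump of slow fibres and heart, with r = 0.715 and 0.676 for 2 of its 3 probes and 0.108 for the other. It was next nearest to *LDHB*, the lactate dehydrogenase subunit of oxidative tissues (0.699), *ECI1*, an isomerase of mitochondrial fatty acid oxidation (0.691), and *DDAH1*, which breaks down methylated arginine (0.672). *PDK3*, a kinase that inhibits pyruvate dehydrogenase (-0.585), *ZDHHC14* (-0.571), *STK26* (-0.538), *HIST1H2BD* (-0.536) and *BPGM* (-0.515) went against it.

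Each of the 5 nearest and the 5 most opposed probes of every member had the same sign in all 3 batches, among the pigs it was picked in. With the 2 pigs farthest from the median of the member left out, the nearest probes had r of 0.593 to 0.686 for *MGST1*, 0.448 to 0.579 for *MGST2*, 0.424 to 0.578 for *PTGR1* and 0.640 to 0.716 for *PTGR2*. Their rho was 0.566 to 0.656, 0.407 to 0.485, 0.415 to 0.544 and 0.642 to 0.720 in the same order.

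**Figure D4:**
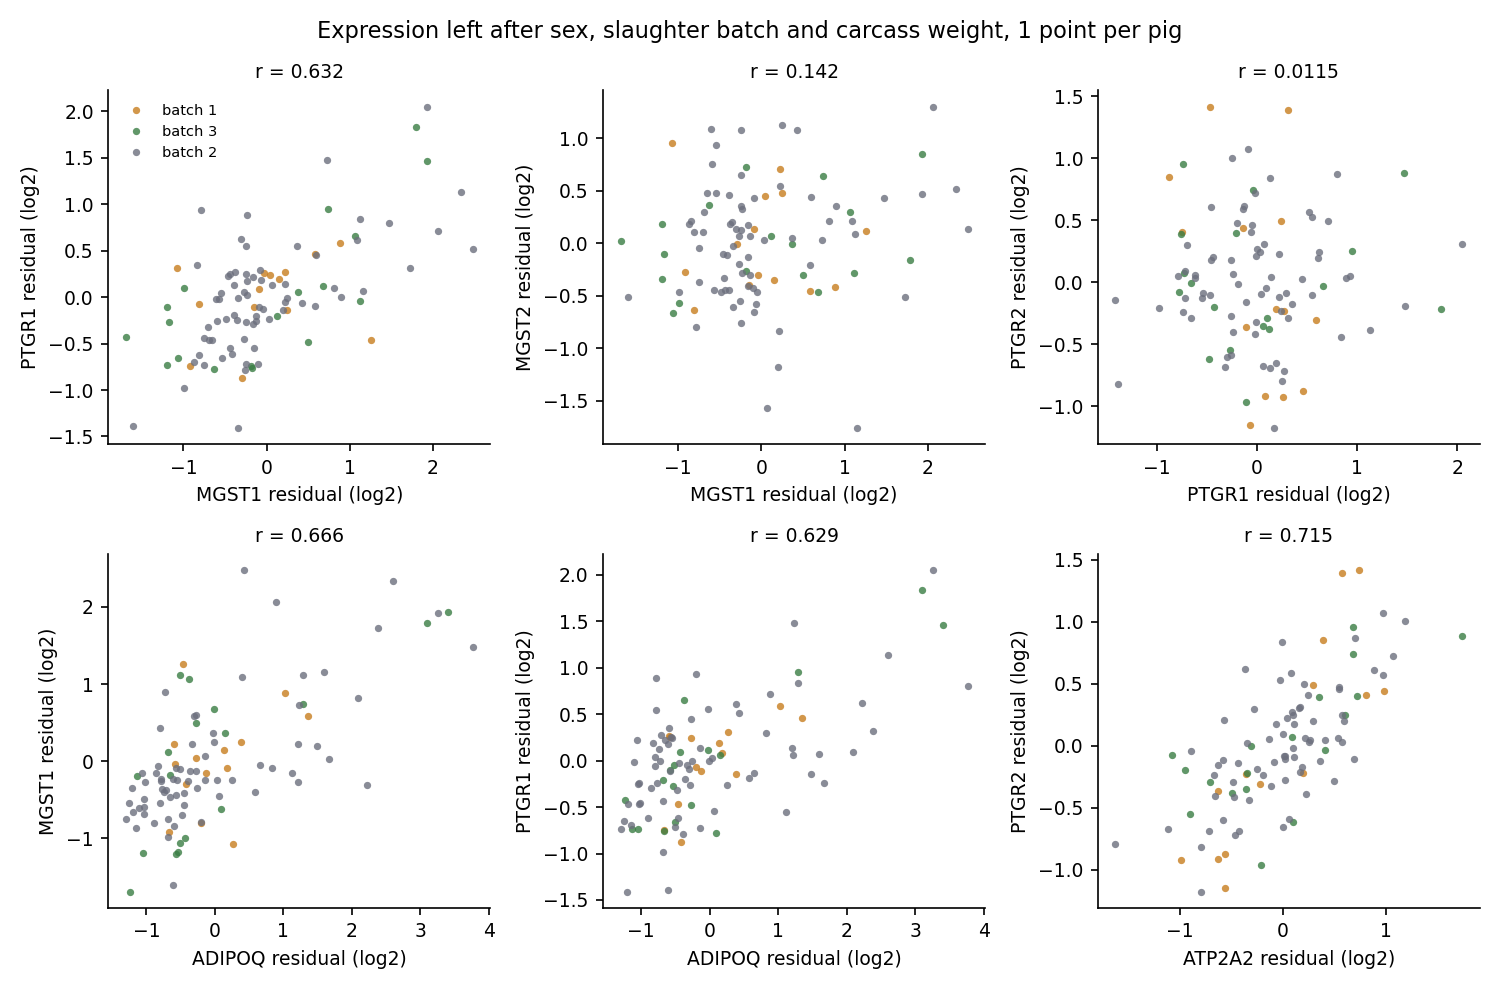
Residuals of log2 expression after sex, batch and weight for pairs of genes, 1 point per pig, coloured by slaughter batch, with r above each panel. *MGST1* and *PTGR1* rise together (r = 0.632) and each rises with *ADIPOQ* (0.666 and 0.629), the 2 pairs of paralogs show r = 0.142 and 0.0115, and *PTGR2* follows *ATP2A2* (0.715).

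Whether a gene followed 1 paralog more than the other was tested directly, on the difference of the scaled residuals of the pair, with both paralogs left out of the 5447 probes. For the glutathione transferases 142 probes differed (2.61%), 127 with the higher correlation for *MGST1* (2.33%) and 15 for *MGST2* (0.275%). For the reductases 497 differed (9.12%), 208 with the higher correlation for *PTGR1* (3.82%) and 289 for *PTGR2* (5.31%). The lists of related genes and of cell types that follow are read against these shares. Within batches, the sign of r was shared by all 3 for the named list genes, apart from *TKT*, *ATP2A2* and *CLDN5* with *MGST1*, *PTGES3* and *PIR* with *MGST2*, *FABP4* with *PTGR1* and *LIPE* with *PTGR2*.

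Slow fibre genes separated the reductases. All 7 measured genes of 9 listed went with *PTGR2*, beside 11% of all probes, with a median r of 0.616 beside 0.01 over all probes. Each of the 7 had a lower r in batch 2 than in batches 1 and 3. The r ranged from 0.296 (*MYL3*) to 0.683 (*ATP2A2*) in batch 2, 0.596 to 0.949 in batch 1 and 0.594 to 0.843 in batch 3. 0 of the 7 went with *PTGR1* (median -0.03) and 0 with *MGST2*, beside 3.01% and 10.9% of all probes. Only *ATP2A2* went with *MGST1* (0.276), beside 13.3%. The 7 included the slow troponins *TNNT1* (r = 0.616 with *PTGR2*, -0.01 with *PTGR1*), *TNNC1* (0.606 and -0.05) and *TNNI1* (0.619 and -0.03) and phospholamban (*PLN*, 0.659 and 0.00), the regulator of the slow calcium pump. All 7 differed between the paralogs (adjusted p from 0.000207 to 0.0075 from limma). The fast fibre calcium pump *ATP2A1* was the only 1 of 10 fast fibre genes measured, and it went against *PTGR2* (r = -0.276, adjusted p = 0.0358) and against *MGST2* (r = -0.341, adjusted p = 0.00847). *PTGR2* correlated at r = 0.663 with the mean of the slow fibre markers. That mean did not set the sexes apart, with 8.42 to 11.98 in females (median 10.58) and 9.79 to 12.19 in males (median 10.60).

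Lipogenic genes were called with *MGST1*, *PTGR1* and *MGST2* and, for 1 gene, with *PTGR2*, a share near its background of 16.6%. Of 5 measured genes of 20 listed for lipogenesis, *MGST1* moved with 4, *SCD* (r = 0.564), *ELOVL6* (0.656), *IDH1* (0.641) and *TKT* (0.367), beside 20.3% of all probes. *PTGR1* moved with 3, *SCD*, *ELOVL6* and *IDH1* (0.352), beside 4.46%. *MGST2* moved with *ELOVL6* (0.282), *IDH1* (0.270) and *ME1* (0.322), beside 24.8%, and *PTGR2* with *IDH1* (0.361). The r of *ME1* with *MGST2* was 0.388 in batch 2, but 0.0237 in batch 1 and 0.0986 in batch 3. The median r of this list was 0.564 for *MGST1*, 0.352 for *PTGR1*, 0.270 for *MGST2* and 0.137 for *PTGR2*, beside medians over all probes from -0.01 to 0.01. The difference between paralogs was called for *TKT* in the glutathione transferases (adjusted p = 0.00477) and was not for *ELOVL6* in either pair (adjusted p = 0.0849 and 0.0594 from limma).

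Of 5 measured adipocyte genes of 12 listed, *MGST1* moved with *ADIPOQ* (0.666) and with *FABP4*, the fatty acid binding protein of fat cells (0.620), beside 20.3% of all probes. *PTGR1* moved with the same genes (0.629 and 0.397), beside 4.46%. *LIPE*, *LPL* and *GPD1* were called with neither. The median r of the 5 genes was 0.231 for *MGST1*, 0.05 for *PTGR1*, -0.07 for *MGST2* and 0.330 for *PTGR2*. *MGST2* moved with none of the 5, beside 24.8% of all probes (*ADIPOQ* -0.02, *FABP4* -0.07). Both genes differed between *MGST1* and *MGST2* (adjusted p = 5.11e-05 for each), and *ADIPOQ* differed between *PTGR1* and *PTGR2* (adjusted p = 0.00407) whereas *FABP4* did not pass (adjusted p = 0.823, from limma). *PTGR2* moved with *FABP4* (0.330), the lipases *LIPE* (0.350) and *LPL* (0.531) and against *GPD1* (-0.423), beside 16.6% of all probes in either direction. *LPL* is also made by oxidative muscle fibres.

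Matrix and macrophage markers were called with *MGST1*, and vessel markers with *PTGR2* and *MGST1*. Of 6 measured fibroblast and matrix genes of 8 listed, 5 went with *MGST1* (median r = 0.390), beside 13.3% of all probes. Among them were fibronectin *FN1* (0.562) and the proteoglycans *DCN* (0.414) and *LUM* (0.404). With *MGST2*, *PTGR1* and *PTGR2* 0 went, beside 10.9%, 3.01% and 11% of all probes. The difference between *MGST1* and *MGST2* was called for 4 of them, *COL1A2*, *DCN*, *FN1* and *POSTN* (adjusted p from 0.000877 to 0.0434 from limma). Of 6 measured macrophage genes of 10 listed, *AIF1* (0.320), *CTSS* (0.457) and *MRC1* (0.434) went with *MGST1*, beside 13.3% of all probes. Of 5 measured endothelial genes of 8 listed, *PECAM1* (0.364), *CLDN5* (0.303) and *TEK*, the angiopoietin receptor (0.442), went with *PTGR2*, beside 11% of all probes. With *MGST1* went *PECAM1* (0.271) and *CLDN5* (0.273), beside 13.3%. The mast cell genes *KIT* and *MS4A2*, the 2 measured of 5 listed, were called with none of the members. No gene of the lymphocyte and red blood cell lists was measured.

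Among enzymes of glutathione synthesis, reduction and use, 14 of 30 listed were measured. With *MGST2* 3 of the 14 were called, beside 24.8% of all probes. *PTGR2* had 2 with it and 1 against it, beside 16.6%. *MGST1* and *PTGR1* had 1 each, beside 20.3% and 4.46%. These counts were near or under the background, so no result about the list is drawn from them. *CDO1*, which turns cysteine towards taurine rather than glutathione, went with *MGST1* (r = 0.595) and *PTGR1* (0.469) and was not called with *PTGR2* (-0.14), and the difference between the reductases was called (adjusted p = 0.000642 from limma). It was also higher in females, by 0.88 (adjusted p = 6.65e-05). *MGST2* went against the aminopeptidase *ANPEP* (-0.261), the peroxidase *GPX7* (-0.270) and the glyoxalase *HAGH* (-0.349). *PTGR2* went with the glutaredoxins *GLRX* (0.323) and *GLRX5* (0.496) and against the glyoxalase *GLO1* (-0.271, with a rho of -0.174 that missed 0.05, p = 0.0807, permutation), and both glutaredoxins differed between *PTGR1* and *PTGR2* (adjusted p = 0.0253 and 0.00086). The r of *GLO1* with *PTGR2* was -0.552 in batch 1 and -0.534 in batch 3, but -0.0146 in batch 2. Glutamate cysteine ligase (*GCLC*, *GCLM*), which makes the glutathione precursor, and glutathione reductase (*GSR*) were called with none of the 4 genes. By sex, 1 of the 14 was higher in females and 4 were lower, *ANPEP* (-0.47), *GPX1* (-0.51), *GLRX* (-0.43) and *GLRX5* (-0.32), beside 11.7% and 14.4% of all probes.

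**Figure D5:**
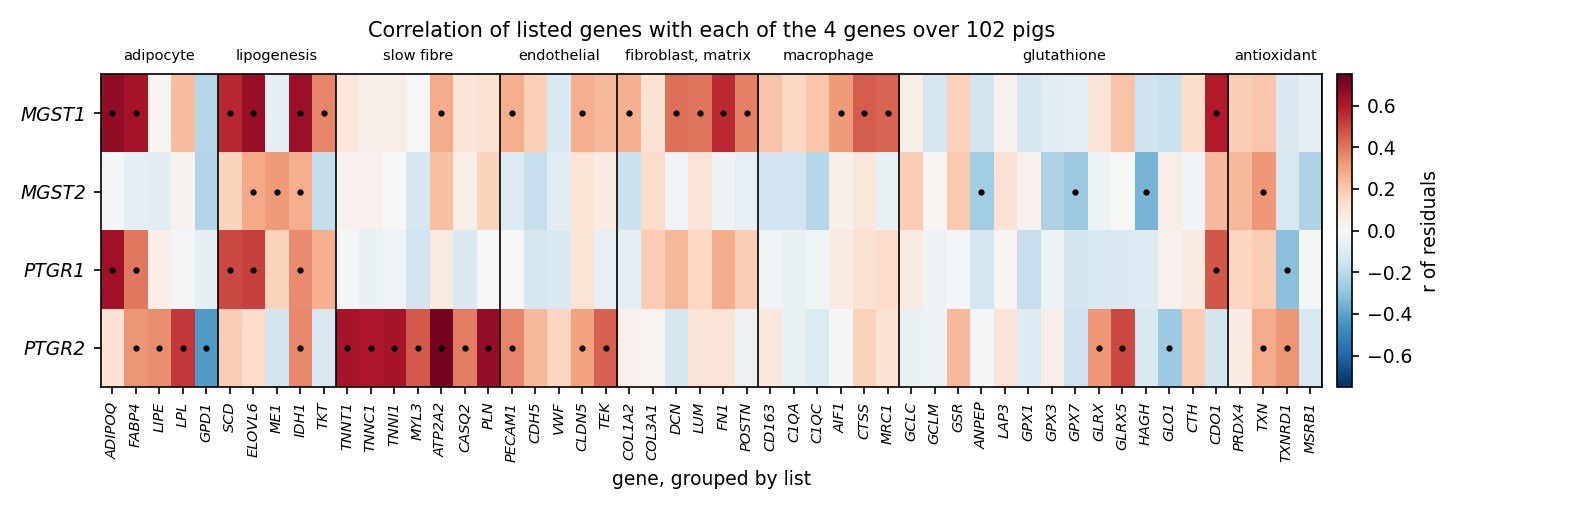
Correlation (colour, r of residuals over 102 pigs) of each measured gene of 8 lists (columns, grouped) with the 4 genes (rows), where a dot marks an adjusted p under 0.05 from limma. The slow fibre block is red for *PTGR2* in all 7 columns and pale for *PTGR1*, and *ADIPOQ*, *SCD*, *ELOVL6* and *CDO1* are red for both *MGST1* and *PTGR1*.

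The NRF2 pathway, whose transcription factor drives many genes of glutathione and quinone metabolism, had 10 of 29 listed genes measured. No member moved with more than 3 of the 10. *MGST2* had 2 with it and 1 against it, beside 24.8% of all probes, and *PTGR2* had 2, beside 16.6%. *MGST1* and *PTGR1* had 1 each, beside 20.3% and 4.46%. These counts were near the background, so no result about the list is drawn from them. *TXNRD1*, thioredoxin reductase, went against *PTGR1* (r = -0.315, adjusted p = 0.0453) and with *PTGR2* (0.331, adjusted p = 0.00973), a difference that was called (adjusted p = 0.000355 from limma), and it was lower in females (-0.47, adjusted p = 0.000119). *EPHX1*, the microsomal epoxide hydrolase, went with *PTGR2* (0.376) and was not called with *PTGR1* (-0.18, adjusted p = 0.0019 for the difference). The r of *EPHX1* with *PTGR2* was 0.824 in batch 1 and 0.597 in batch 3, but 0.0249 in batch 2, the largest batch. *MGST2* went with *ME1* (0.322) and *PIR* (0.277) and against the autophagy receptor *SQSTM1* (-0.319), and *MGST1* with *TKT* (0.367). The relations of *MGST2* to *ME1* and *PIR* rested on batch 2, with r of 0.388 and 0.348. In batch 1 they were 0.0237 and -0.00757, and in batch 3 0.0986 and -0.00437. Of 4 measured antioxidant enzymes of 22 listed, thioredoxin (*TXN*) went with *MGST2* (0.325) and *PTGR2* (0.276), and *PRDX4* was higher in females by 0.41 (adjusted p = 0.00252).

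Few relatives of the 4 genes were among the tested probes, and absent ones may have been filtered out before deposit. *MGST1* and *MGST2* were the only measured genes of the 6 listed for the MAPEG family, and *GSTA4* was the only one of 18 cytosolic and mitochondrial transferases, with r of at most 0.118 with any member. Of 37 listed genes of prostaglandin and leukotriene synthesis and breakdown, the other measured ones were *PTGS1*, *PTGES3* and *PTGDS*, of which *PTGES3*, a prostaglandin E synthase and chaperone partner, was called with *MGST2* (0.271, adjusted p = 0.0323 from limma). That relation rested on batch 2 (r = 0.335), with -0.0187 in batch 1 and -0.226 in batch 3, and its rho of 0.184 missed 0.05 (p = 0.0637, permutation). Of 13 receptors, *PTGFR* for prostaglandin F went with *MGST1* (0.411) and *CYSLTR2*, which binds the leukotrienes made from leukotriene C4, with *MGST2* (0.305). Of 9 medium-chain relatives of the reductases, sorbitol dehydrogenase *SORD* went with *PTGR2* (0.588), *MGST1* (0.497) and *MGST2* (0.341), and *RTN4IP1* with *PTGR2* (0.376) and *MGST2* (0.365). Neither relative was called with *PTGR1* (*SORD* 0.211, adjusted p = 0.164; *RTN4IP1* 0.03, adjusted p = 0.877).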

How the data were processed

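Porcine Affymetrix expression arrays had been hybridized with *Longissimus dorsi* RNA of 102 pigs. The deposited values are log2 intensities, which the authors had obtained by GCRMA, a method that corrects background by probe sequence and normalizes between arrays (per the submitters' processing notes, version not given in the sources used here). Of 5493 probes, 44 controls were left out and 5449 were tested, of which 2639 had 1 gene symbol, 49 several and 2761 none. The filter for variable probes that the paper describes may have shaped this set before deposit. Arrays carry no counts, so their number limits the precision. Correlations between arrays ranged upwards from 0.605 with a median of 0.897, and 0 pairs were identical.

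The model was limma (version 3.58.1, R 4.3.3) with sex, slaughter batch and carcass weight as effects. Tests were two-sided, p-values were adjusted over all probes by Benjamini-Hochberg, and calls were made at 0.05. Relations to a member used its residual, scaled to an SD of 1, as the tested effect. The test of a different relation to 2 paralogs, and the models with marker genes added, were chosen after the data had been seen. Paralog differences and pairs used 100000 permutations (Python 3.11.15, numpy 2.4.6, pandas 2.3.3, scipy 1.17.1), and sex inside batches 1 and 3 used exact permutation tests. Figures were drawn with matplotlib 3.10.9. The fits were tested on simulated data.

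The pigs were grouped by their labels, and 0 value columns were left unused. No pedigree entered the model. The pigs, although related, were taken as independent, and p-values may be too small. The members and lists were chosen with earlier results of these data known. Named genes were every member, up to 4 called genes of a list by the smallest p, the 5 nearest and the 5 most opposed probes with 1 symbol, and *ELOVL6* and *SCD*. Further genes of a list were named after their values had been seen. Lists used the probe with the highest mean of each gene, and no set test was run. Alternatives were quantile normalization, age, 2 principal components or the actin difference as further effects, array weights, no other covariates, batch as a random block, batch 2 or each sex only, probes with a mean of at least 4, and leaving out 3 arrays against their label or the 2 pigs farthest from the median. Genotypes, fatty acid composition and backfat arrays are not used here.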

Additional observations from a re-analysis of the deposited data

How the results depend on the processing

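Among the alternatives to the main results, 261 kept direction and side of the threshold (counts within 1.5 times), 28 moved, 16 became called, 9 lost the call and 8 turned in sign. The cause of the changes below was not tested. The sex difference of *PTGR2* passed at -0.28 with 2 principal components, -0.28 with array weights, -0.29 with the adipocyte marker mean and -0.31 with *ADIPOQ* added, and that of *MGST1* was lost at 0.12 with *ADIPOQ*. For batch 1 and batch 3 against batch 2, *MGST1* was lost at 0.42 and 0.48 with the actin difference, and *PTGR1* was -0.10 in batch 1 with it and passed at 0.38 and 0.55 with the adipocyte mean. Weight called 258 probes with 2 principal components, 126 with array weights, 1 without the 3 arrays, 1 with batch as a random block and 3412 with no other covariates. The weight slope turned for *MGST2* (0.013) and *PTGR2* (0.0404) in batch 2 only, and for *MGST1* (-0.11) and *PTGR1* (-0.0065) with no other covariates, where that of *MGST2* was called (-0.23, adjusted p = 0.00344).

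*MGST2* with *PTGR2* passed at r = 0.266 with quantile normalization, 0.265 with the adipocyte mean, 0.257 by Spearman's rho and 0.305 without 2 pigs. *MGST1* with *PTGR2* passed at 0.256 without the 3 arrays, 0.237 with *ADIPOQ* and 0.262 without 2 pigs. With the adipocyte mean *MGST1* with *MGST2* passed at 0.236 and *MGST2* with *PTGR1* at 0.277 (0.270 with *ADIPOQ*). *PTGR1* with *PTGR2* turned to -0.0147 with actin, -0.176 in females, -0.156 with the adipocyte mean, -0.0726 with *ADIPOQ* and -0.0499 by rho, uncalled throughout.

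The number of probes that moved with *MGST1* was 660 with actin, 214 in batch 2, 198 in females, 591 in males, 2768 with the adipocyte mean and 2257 with *ADIPOQ*. For *MGST2* it was 0 with 2 principal components (663 at an unadjusted p under 0.05 in limma), 314 with actin, 846 in batch 2, 0 in females (827 at an unadjusted p under 0.05) and 83 in males. For *PTGR1* it was 38 with 2 principal components, 100 with actin, 585 without the 3 arrays, 26 in batch 2, 23 in females, 4 in males, 2078 with the adipocyte mean and 1040 with *ADIPOQ*. For *PTGR2* it was 75 in batch 2, 432 in females, 288 in males and 576 with the slow fibre mean.

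*MGST1* minus *MGST2* turned to -0.0217 for batch 3 with actin, and to -0.25 for sex and -0.0045 per 10 kg with *ADIPOQ*. *PTGR1* minus *PTGR2* turned to -0.0058 per 10 kg in batch 2, and its batch call was lost at -0.59 and -0.58 with actin, -0.43 and -0.54 with *ADIPOQ*, and -0.44 and -0.43 with the slow fibre mean. Other probes of a member were not compared, since each gene had 1. No paired analysis was possible because replicate numbers only follow the order of deposit. Dim probes limit *MGST1* and *PTGR1*, whose changes may be compressed.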
